A study of Bos taurus with 12 samples.

Results

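The regions described here carried a peak of methylated DNA in the medium and the low methylated fractions of Angus beef and in no library of the high methylated fraction. Peaks of the 12 single libraries that shared 1 bp or more on chromosomes 1 to 29 were joined, and a region was kept when all 4 medium libraries and at least 3 of the 4 low libraries had a peak in it and none of the 4 high libraries did. The rule kept 758 of 74459 joined regions, or 1.02%. It thus used the presence of a peak in every library, so presence, and any contrast of the high with the other fractions, is described below without a test.

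The DNA came from longissimus muscle of Angus steers of around 12 months of age, 2 with tender and 2 with tough meat, chosen by the study at random within the animals of lowest and of highest shear force. From each animal captured DNA was released in 3 steps, which the labels call the high, middle and low gradient and which gave the groups HTE, MTE and LTE in tender beef and HTO, MTO and LTO in tough beef, with 2 libraries in each. All animals were contemporary steers from the same source on the same diet, no input library was used in peak calling, and muscle tissue holds several cell types that these data cannot separate. The methods of the study tie the low salt buffer to the high methylated fraction while its supplement ties it to high salt, so fractions are named here by methylation level only.

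Methylation of cytosine in CpG dinucleotides is copied at cell division by maintenance methyltransferases and is read by proteins with a methyl-CpG binding domain. Such a domain was used as bait (MBD-seq), and its grip on a fragment grows with the number of methylated CpGs the fragment carries. Serial elution therefore sorts fragments by how densely they are methylated, and most of a mammalian genome is CpG-poor and methylated outside of CpG islands. A peak is a stretch where tags pile up above the local background. No genome or gene annotation of bosTau8 was used here, so the regions are given by position, without sequence or gene.

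The depth left after duplicate removal was 3677473 to 4843388 tags in the high libraries, 5969045 to 6886676 in the medium and 5770411 to 7981292 in the low. On chromosomes 1 to 29 these gave 10178 to 12784 peaks per high library, 23982 to 35688 per medium and 9555 to 28599 per low library. LTE_1 had the fewest peaks, 9555, and LTE_2 had 16881, against 27783 in LTO_1 and 28599 in LTO_2. These differences in list length bear on every count below that asks for presence, and their part in the results was not tested except where the same number of peaks was taken from each library.

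At the edge of the rule there were 332 regions with a peak in all 4 low libraries and 426 with a peak in 3, both inside the rule. Just outside lay 642 regions with all 4 medium but only 2 low libraries, 572 with 3 medium and at least 3 low libraries, and 486 that met the rule but for a peak in 1 high library. Fold enrichment is the pileup plus 1 over the local background plus 1 of the same library, so at few tags it largely follows the tag count. Its median in the medium libraries was 7.10 with 4 low libraries, 7.65 with 3 and 7.51 with 2. The median pileup per 1000000 tags fell with the number of low libraries, from 2.32 to 1.74 and 1.68 in the medium and from 2.25 to 1.38 and 1.25 in the low libraries. Among regions with a peak in all 4 medium and at least 3 low libraries whatever the high libraries showed, 5919 in all, the members made up 12.8%, and 3932 had a peak in all 4 high libraries. Regions with a peak in all 12 libraries, 3174 of them, were of another kind, with a median medium pileup of 26.9 per 1000000 tags and a fold enrichment of 3.40.

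Most members were weakly covered. The median pileup of a member was 14 tags in MTE_1, 14 in MTE_2, 11 in MTO_1 and 12 in MTO_2, and it was 10 in LTE_1, 10 in LTE_2, 12 in LTO_1 and 12 in LTO_2. Scaled to depth, as pileup per 1000000 tags left after duplicate removal and here called scaled pileup, this made 2.12, 2.03, 1.83 and 2.01 in the medium libraries and 1.73, 1.396, 1.50 and 1.66 in the low libraries, so every medium library lay above every low library. The median scaled pileup over all peaks of a list was 4.34 to 5.71 in the high libraries, so a typical high peak was deeper than a typical member. In fold enrichment the members had medians of 7.87, 7.93, 7.28 and 7.13 in the medium libraries, above the medians of 6.73, 6.82, 6.55 and 6.50 of all peaks of those lists. The low libraries gave 6.08, 6.38, 6.62 and 7.12, against 5.83, 5.94, 5.97 and 6.34 for all peaks. Since members had to be called in 7 or 8 libraries, this excess is part of how they were chosen.

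**Figure D1:**
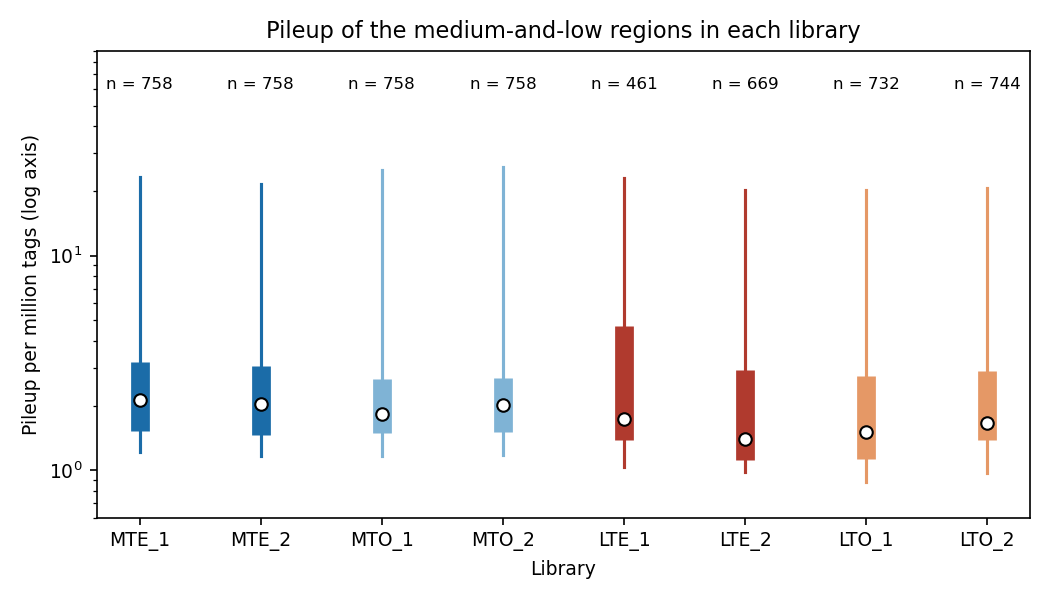
Scaled pileup (y, per 1000000 tags, log axis) of the medium-and-low regions in each medium and low library. Points are medians, thick bars span the quartiles and thin lines the 5th to 95th percentile over the members with a peak in that library (n above each bar). Medians sit between 1.396 and 2.12, and in every library the upper line reaches past 20.

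The members were not of 1 kind. In 600 of 758, or 79.2%, the pileup stayed under 30 tags in every medium library, in 74 (9.76%) it was 100 or more in every medium library, and 84 lay between. These limits were chosen after the values were seen. The sparse kind had a median fold enrichment of 8.01 in the medium and 6.91 in the low libraries, over an implied background of 0.468 tags. The crowded kind had a fold enrichment of only 2.00 in the medium and 1.99 in the low libraries, over an implied background of 73.2 tags. Its peaks therefore stood on ground where tags were already dense, and copy number and repeats were not analysed here. Among all 13669 regions with a peak in the 4 medium libraries, 31.6% had a pileup of 100 or more in each of them, against 9.76% of the members.

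**Figure D2:**
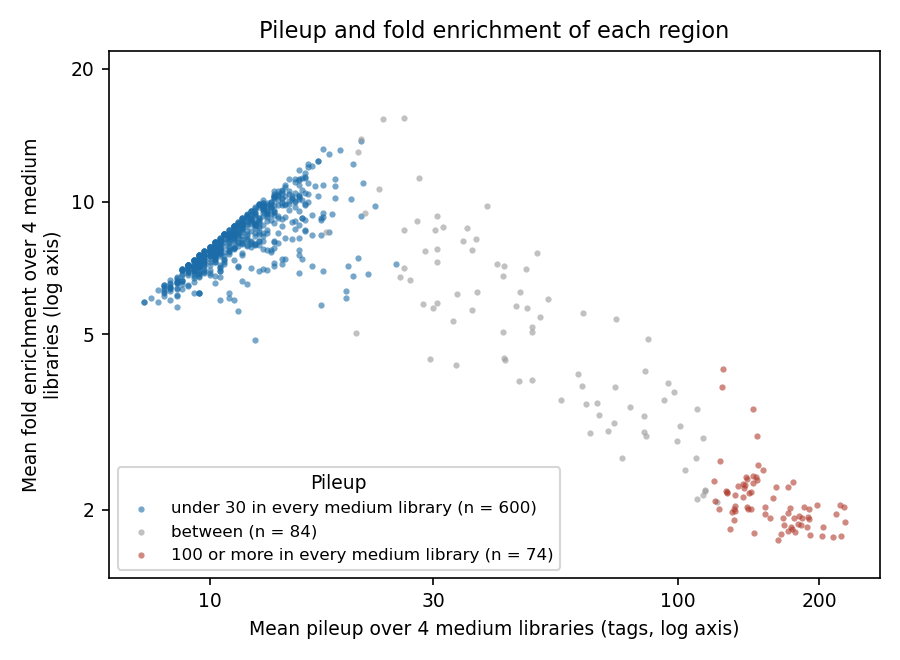
Mean pileup (x, tags, log axis) and mean fold enrichment (y, log axis) over the 4 medium libraries for each of the 758 regions, coloured by pileup. The 600 sparse regions rise along a line where pileup and fold grow together over a background near 0.468 tags, and the 74 crowded ones lie at the lower right around a fold of 2.00.

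In the crowded kind the median pileup in tags was 154, 148.5, 153 and 156 in MTE_1, MTE_2, MTO_1 and MTO_2, and 121, 138, 158 and 146 in LTE_1, LTE_2, LTO_1 and LTO_2. In scaled pileup these medians were 23.4, 21.6, 25.5 and 26.1 in the medium and 21.0, 19.3, 19.8 and 20.2 in the low libraries. Every medium library thus lay above every low library once scaled to depth, narrowly for MTE_2 (21.6) against LTE_1 (21.0). The kind was defined by pileup in the medium libraries alone, so this order is favoured by how the kind was chosen. Of the 74, 13 were on chromosome 27, 9 on chromosome 1, 8 on chromosome 8 and 8 on chromosome 29. In the same order, these chromosomes held 439, 360, 540 and 187 of the 5919 regions with all 4 medium and at least 3 low libraries, at any pileup. All 4 low libraries had a peak in 54 of the 74 (73.0%), against 213 of the 600 sparse members (35.5%).

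Members in runs, with gaps under 10 kb to the next member, were 25 of the 74 crowded, 41 of the 84 between and 13 of the 600 sparse members. The run with most members held 5 regions within 22814 bp at chr27:28697038-28719851 (bosTau8), 3 of them crowded and 2 between. Their fold enrichment lay between 1.75 and 2.60 in all 8 medium and low libraries, and the first of them, chr27:28697038-28697400, had a pileup of 142, 117, 94 and 100 in MTE_1, MTE_2, MTO_1 and MTO_2 and of 110, 142, 144 and 143 in LTE_1, LTE_2, LTO_1 and LTO_2. All 5 lay within 1008 bp of a region with a peak in a high library. The next longest runs held 4 members each, at chr18:43813703-43823298 (9596 bp, more closely packed than the run of 5), chr22:42417197-42431051 and chr14:69903-86107. Such runs were few, since 679 of the 758 members had no other member under 10 kb away and the median gap between neighbouring members on a chromosome was 1862720 bp.

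At the other end stood members with a high fold enrichment in every library that had a peak. The member whose lowest fold enrichment was highest, chr9:88822723-88823187, is 465 bp wide and had a fold enrichment of 14.9, 16.6, 12.7 and 10.9 in MTE_1, MTE_2, MTO_1 and MTO_2 and of 9.97, 11.6, 14.0 and 12.7 in LTE_1, LTE_2, LTO_1 and LTO_2. The medium libraries of tender beef were the highest at this place, and the nearest region with a peak in a high library was 175081 bp away. The region chr14:14653209-14653495 had 9.72, 12.1, 10.7 and 9.99 in the same order of medium libraries and 14.0, 13.0, 10.3 and 12.7 in the low ones, where 3 of 4 exceeded every medium library. Next came chr2:126309987-126310281, with 13.6, 14.8, 9.46 and 9.27 in the medium and 10.1, 12.8, 9.61 and 11.7 in the low libraries. Both MTE libraries were above both MTO libraries there.

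The next 5 were chr6:6332331-6332588, chr6:6326049-6326290, chr25:29698867-29699147, chr12:21222367-21222658 and chr15:78031855-78032204. The pair on chromosome 6 lies in a run of 3 members within 6540 bp, the closest run of that length. The region on chromosome 12 had higher fold enrichment in each low library (12.5 to 14.9) than in any medium library (8.76 to 10.9), and so, among the low libraries, did the region on chromosome 15 in 3 of 4 (9.77, 10.01 and 10.07 against at most 9.01), the fourth, LTO_2, having 8.99. Both lay under 1 kb from a region called in a high library, at 711 and 515 bp, and so did the region on chromosome 25, at 928 bp.

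The joined regions had a median width of 389 bp (95% interval of the median 378 to 401 bp, n = 758), and ranged from 192 to 1256 bp. Joining widens a region with each library, and a single peak in a member had a median length of 234 bp, against 303 bp in the 909 regions called in all 4 high and all 4 medium but no low libraries, 204 bp in the 626 called in all 4 medium libraries only and 188 bp in the 768 called in at least 3 low libraries only. The widest member, chr4:57414842-57416097, was of the crowded kind with a fold enrichment of 1.91 to 2.56. The other wide ones, chr3:25704018-25705082 (1065 bp), chr4:119891778-119892805 (1028 bp) and chr13:38771963-38772950 (988 bp), were not, with fold enrichments of 7.28 to 9.48, 4.68 to 7.39 and 6.64 to 9.01 in the medium libraries. The medium and the low fractions peaked at nearly the same place. The median summit of the medium libraries was a median of 28.5 bp from that of the low libraries and within 100 bp in 647 of 758 members (85.4%), while the 4 medium summits themselves spanned a median of 81 bp.

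The single lists and the deeper merged lists gave different answers on whether a member had a peak of high methylated DNA. The authors also called peaks on the merged reads of both replicates, with 7730604 tags in HTE and 5931831 in HTO, more than any single high library had. These lists also differ from the single ones in MACS2 version and effective genome size, and the part of each was not tested. Of the 758 members, 352 (46.4%, Wilson 95% interval 42.9 to 49.997%, counting error only) had a peak in the merged HTE list and 201 (26.5%, 23.5 to 29.8%) in the merged HTO list. Either list had a peak in 422 members (55.7%, 52.1 to 59.2%), both lists in 131 (17.3%), and 336 had none in either. Over all 57855 regions without a peak in a single high library, 7.51% had a peak in merged HTE, 3.5% in merged HTO, 9.47% in either and 1.54% in both. Over the 2738 of them with a peak in all 4 medium libraries, the members included, the shares were nearer to those of the members. They were 42.7% for HTE, 21.8% for HTO, 50.9% for either and 13.6% for both. The merged lists hold the reads of the libraries the rule used, so these shares are a description.

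**Figure D3:**
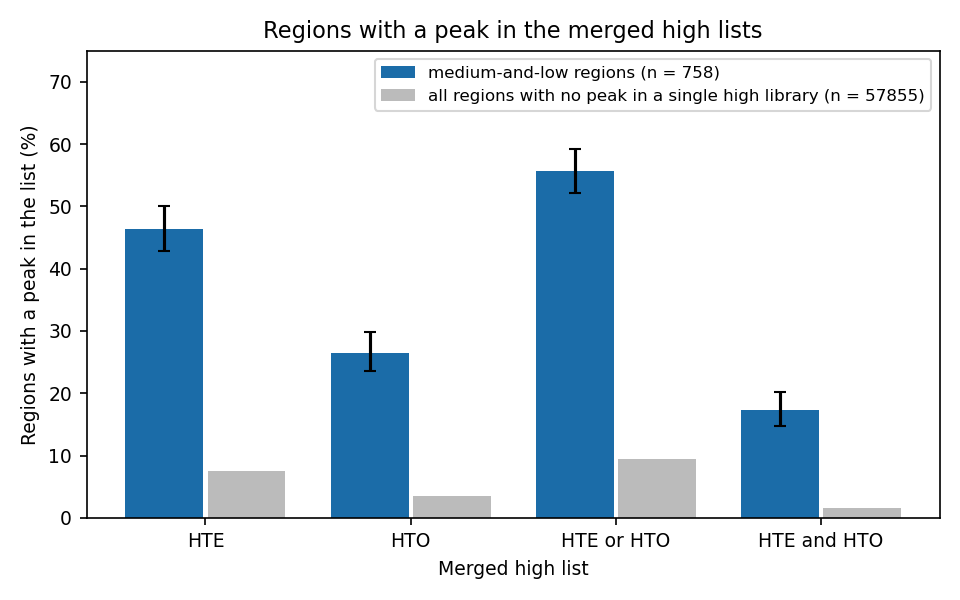
Share of regions (y, %) with a peak in the merged HTE list, the merged HTO list, either or both. Blue bars are the 758 medium-and-low regions with Wilson 95% intervals and grey bars all 57855 regions without a peak in a single high library. Blue bars stand at 46.4, 26.5, 55.7 and 17.3%. Not drawn are the 2738 grey regions with a peak in all 4 medium libraries, at 42.7, 21.8, 50.9 and 13.6%.

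Where the merged high lists had a peak, it was weak for its list. The members' median fold enrichment in merged HTE was 5.81 and in merged HTO 6.14, against 6.62 and 6.88 for all peaks of these lists, and their median pileup was 10 and 9 against 19 in each. In the merged medium lists the members had 10.7 (MTE) and 10.02 (MTO). The strongest region above, on chromosome 9, had a merged HTE peak of 7.10-fold and none in HTO, and the one on chromosome 2 had none in either. Members with and without a merged high peak had nearly the same medium scaled pileup, 1.92 and 1.88, and widths of 413 and 354.5 bp. The regions called in at least 3 low libraries only had a merged high peak in 4.04% (31 of 768), and those called in the medium libraries only in 50.2% (314 of 626).

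If a member had held the same scaled pileup in a high library as in the medium libraries, a median of 8.77 tags would have been expected in HTE_1, 9.38 in HTE_2, 7.12 in HTO_1 and 7.21 in HTO_2. The lowest pileup of any called peak was 5, 5, 4 and 4 in these libraries, and 95% of their peaks had at least 8, 8, 6 and 6. The expected number reached the lowest called pileup in all 758 members in each high library, and the second mark in 472, 535, 551 and 570 of them. How many peaks of this size would have been called was not tested.

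Where a low library lacked a peak, it was mostly LTE_1. Of the 426 members with 3 low libraries, 297 (69.7%) lacked a peak in LTE_1, 89 (20.9%) in LTE_2, 26 in LTO_1 and 14 in LTO_2. This is the order of the number of peaks in these lists. Nearly all such gaps closed in the merged lists, which had a peak in 294 of the 297 members lacking LTE_1 and in all of the 89, 26 and 14 others. All 758 members had a peak in the merged lists of MTE, MTO and LTO, and 755 in that of LTE.

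The distance of the members from regions called in a single high library was not part of the rule. The nearest region with a peak in at least 1 high library was a median of 45031 bp away (95% interval of the median 35793 to 54063 bp), compared with 17765 bp (14704 to 19922) for the regions called in the medium libraries only and 36403 bp (29121 to 46359) for those called in low libraries only. The members' median was 14357 bp without LTO_1, 16503 bp without LTO_2, 23849 bp without LTE_2 and 41862 bp without LTE_1. In these settings all 3 remaining low libraries had to have a peak, so the rule was also stricter. It was 13715.5 bp for the 332 members with all 4 low libraries. Some of these values lie below the medium-only 17765 bp, but the medium-only and low-only medians were not recomputed under these settings. Regions are not replicates and the difference between the classes was not tested. The kinds of member differed widely in this distance. The crowded members lay a median of 552 bp from such a region and at most 2483 bp, with 63 of 74 under 1 kb. The 84 between had a median of 1061 bp, with 41 under 1 kb and 3 at 100 kb or more. The sparse members lay a median of 83059 bp away, with 277 of 600 (46.2%) at 100 kb or more and 30 (5.0%) under 1 kb. These distances leave out the merged high lists. Those lists had a peak within 340 of the 600 sparse members (56.7%), 43 of the 84 between (51.2%) and 39 of the 74 crowded (52.7%).

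**Figure D4:**
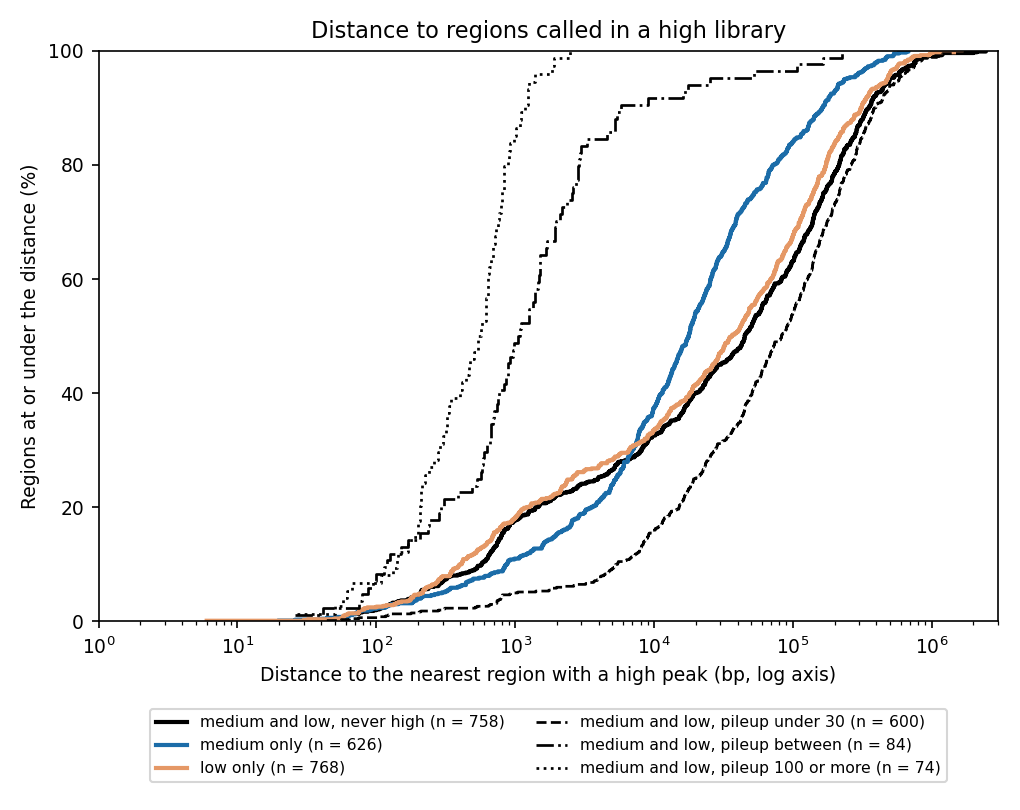
Cumulative share of regions (y, %) by distance to the nearest region with a peak in a high library (x, bp, log axis). Solid lines are the 758 medium-and-low regions, the 626 medium-only and the 768 low-only regions, and broken lines are the sparse, between and crowded members, whose medians are 83059, 1061 and 552 bp.

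Along the genome, members were found on all 29 autosomes, with 14 to 43 per chromosome. As a share of joined regions they ranged from 0.563% on chromosome 25 and 0.718% on chromosome 22 to 1.53% on chromosomes 27 and 28 and 1.57% on chromosome 6, around a median of 0.979%. Chromosome 27 had the most for its length, 74.9 per 100 Mb up to its last region, against a median of 30.2, and 13 of its 34 members were crowded and 10 sparse. Chromosome 6 had 43 members, of which 34 were sparse. Relative to regions with all 4 medium and at least 3 low libraries, the share that had no high peak was lowest on chromosome 8 (5.93%), followed by chromosome 27 (7.74%), and highest on chromosome 12 (25.4%). No test was made over chromosomes.

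To compare tender with tough beef, which the rule treats alike, each peak was given its percentile of fold enrichment among the peaks of its own library. In the medium fraction the members' median percentile was 70.9 in MTE_1 and 69.9 in MTE_2, and 62.2 in MTO_1 and 61.4 in MTO_2. The tender libraries were thus both above the tough libraries, by 8.57 points on average (means 70.4 ± 0.71 and 61.8 ± 0.53, SD, n = 2 libraries each, exact permutation test on both sides, p = 0.333, which is the lowest possible with 2 against 2). In all 13669 regions with a peak in the 4 medium libraries the difference was 1.66 points and the libraries overlapped. In scaled pileup the members had 2.12 and 2.03 in tender and 1.83 and 2.01 in tough beef, without overlap (exact permutation test, p = 0.333). The medium tender libraries also had the longer lists and the greater depth, and the part of this in the difference was not tested.

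Region by region, both tender libraries were above both tough libraries in 217 of 758 members (28.6%), and both tough libraries above both tender in 142 (18.7%). Over the 13669 regions with a peak in all 4 medium libraries these shares were 17.9% and 35.3%. By scaled pileup the members gave 213 (28.1%) and 158 (20.8%), against 15.7% and 42.6%. Crowded regions were 31.6% of that background, so the count was repeated, after the values were seen, among regions with a pileup under 30 in every medium library. Of 600 members 192 (32.0%) were then higher in tender and 70 (11.7%) in tough beef, against 22.7% and 17.1% of all 8407 such regions. The members' shares thus lay on the tender side of the background in both counts.

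In the low fraction the order was the opposite. The median percentile was 57.1 in LTE_1 and 57.1 in LTE_2, and 65.6 in LTO_1 and 72.2 in LTO_2, so both tough libraries were above, by 11.8 points (57.1 ± 0.049 and 68.9 ± 4.67, SD, n = 2 libraries each, exact permutation test, p = 0.333). In all 5130 regions with a peak in the 4 low libraries the order was the reverse, with 33.3 and 24.4 in tender and 16.3 and 19.3 in tough beef, a difference of 11.1 points towards tender. Each library's median was over the members with a peak in it, 461, 669, 732 and 744, and over the 332 members with all 4 the difference was -13.1 points. In scaled pileup the libraries overlapped, with 1.73 and 1.396 in tender and 1.50 and 1.66 in tough beef (exact permutation test, p = 1). Of the 332 members, both tough libraries were above in 97 (29.2%) and both tender in 73 (21.99%), where 22.9% and 42.1% of all 5130 regions with 4 low peaks were. By scaled pileup 75 (22.6%) and 70 (21.1%) of the members were, against 43.8% and 15.5%. Among regions with a pileup under 30 in every low library the members' shares, 36.9% tough and 7.77% tender (n = 206), were near those of all 1340 such regions, 36.6% and 9.63%. The median percentiles of the 1340 were 76.3 and 82.6 in tender and 86.8 and 87.6 in tough beef, the same order as in the members. With the same number of peaks, the 9555 of lowest p-value, taken from every library, the rule kept 105 regions. These went the other way from the members, by -7.98 points in the medium and 4.16 in the low fraction (exact permutation tests, p = 0.333 and 0.667).

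**Figure D5:**
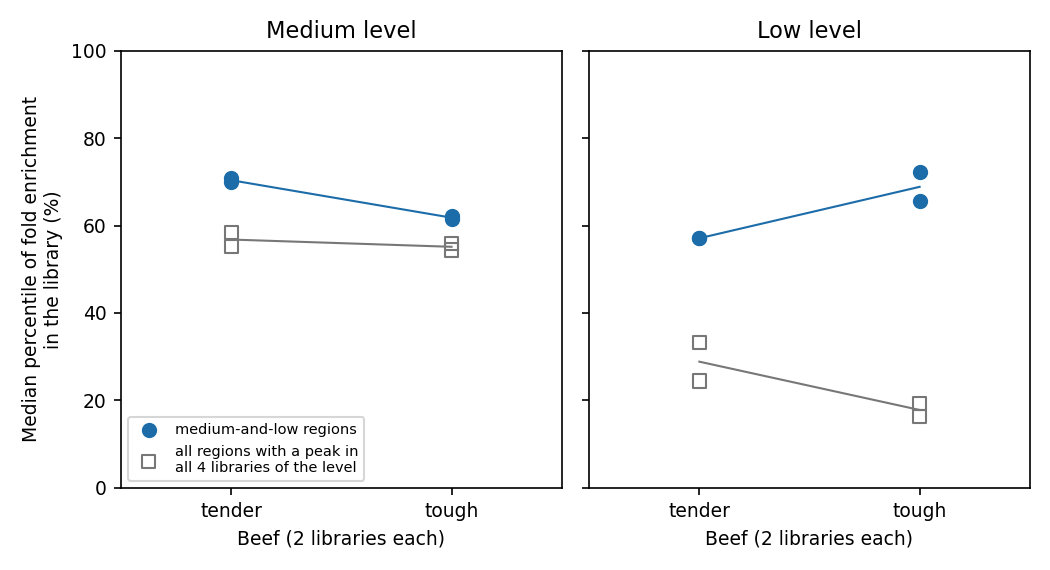
Median percentile of fold enrichment (y, %) in each library of tender and tough beef, at the medium and the low level. Filled points are medians over the medium-and-low regions, open squares over all regions with a peak in all 4 libraries of the level, and lines join group means. Filled points fall from 70.4 to 61.8 on average at the medium level and rise from 57.1 to 68.9 at the low level. Not drawn are all regions with a pileup under 30 in every library of the level, which had the same orders as the filled points.

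Single members showed larger differences. The members named here were ranked by that difference, so their values are a description. At the medium level chr24:49967022-49967370 had 13 and 16 tags in MTE_1 and MTE_2 and 6 and 7 in MTO_1 and MTO_2, with fold enrichments of 9.62 and 11.1 against 5.09 and 5.71. The region chr23:52081160-52081579 had 30 and 22 tags in tender and 10 and 9 in tough beef. In chr7:18002281-18002602 these were 25 and 22 against 9 and 8. The fold enrichments of these last 2 regions were 12.5 and 10.2 against 6.25 and 5.14, and 13.8 and 12.9 against 6.25 and 6.26. In the low libraries with a peak in the 3 regions they were 5.19 to 8.002.

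The opposite direction was led by chr24:7265636-7266434, with 8 and 6 tags in MTE_1 and MTE_2 and 13 and 12 in MTO_1 and MTO_2. Next were chr23:22147975-22148363, with 6 and 6 against 13 and 9 tags, and chr21:69527149-69527460, with 8 and 6 against 10 and 14. These peaks rest on few tags.

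At the low level the largest tough-side difference was at chr19:58779452-58779773, where LTE_1 and LTE_2 had 7 and 6 tags and LTO_1 and LTO_2 had 17 and 17. The same region had 29 and 30 tags in MTE_1 and MTE_2 and 14 and 10 in MTO_1 and MTO_2, so the direction between tender and tough was opposite in the medium fraction. In chr4:111316172-111316703 the low libraries had 7 and 6 tags in tender and 14 and 14 in tough beef, and in chr27:22585007-22585434 they had 7 and 7 against 13 and 14. On the tender side, chr19:4040085-4040473 had 19 and 24 tags in LTE_1 and LTE_2 and 16 and 17 in LTO_1 and LTO_2, with fold enrichments of 6.57 and 6.47 against 3.86 and 4.81. The other regions on that side were chr10:24595879-24596325, with fold enrichments of 7.44 and 9.96 against 5.31 and 6.41, and chr19:41429896-41430620, with 6.88 and 6.30 against 4.93 and 5.10.

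Between the medium and the low fraction, a consistent lead of the medium libraries was less frequent among members than among all regions called in both, and a lead of the low libraries was not. The 332 members with peaks in all 8 libraries had a higher scaled pileup in every medium than in every low library in 43 cases (13.0%), and the reverse in 26 (7.83%). Of all 4176 regions with peaks in these 8 libraries, the members included, 64.5% and 5.6% did. In fold enrichment the members had 40 (12.0%) and 24 (7.23%), against 34.2% and 5.08%. Most of the 4176 regions, 3174, were called in all 12 libraries and were deeper than the members, pileup was not matched, and the comparison was not tested. Set side by side by beef and replicate number, the medium library had the higher scaled pileup in 63.8% of 461 members in MTE_1 and LTE_1, 72.8% of 669 in MTE_2 and LTE_2, 67.1% of 732 in MTO_1 and LTO_1 and 64.2% of 744 in MTO_2 and LTO_2.

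Which members were strong was shared most among the low libraries. Over the 332 members, Spearman's correlation of fold enrichment was 0.72 to 0.79 among the medium libraries, 0.81 to 0.86 among the low libraries and 0.65 to 0.75 between a medium and a low library. The medium range overlapped the last one, since MTO_1 had 0.747 with LTO_2 and 0.738 with its replicate MTO_2. Over all regions with a peak in every medium and low library the correlations were higher. They were 0.972 to 0.986 among the medium, 0.973 to 0.982 among the low and 0.916 to 0.963 between them, so the low libraries did not stand out there. The points are regions of the same libraries and include sparse and crowded members, so these values are a description.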

How the data were processed

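The 12 libraries were grouped by their titles. Per the file headers and the methods, the authors trimmed raw reads (SOAPnuke), mapped them to bosTau8 (BWA, 0.7.7 in the submitters' processing notes) and used unique alignments only. MACS2 was run without control at a q-value cutoff of 0.01, keeping 1 tag per position, with a regional background of 10000 bp, in version 2.1.1.20160309 for single libraries and 2.1.0.20150731 for the merged replicates. The deposited lists give each peak's pileup (a signal in tags, not scaled to depth by the authors), its fold enrichment (the ratio of pileup plus 1 to local background plus 1) and, on the −log10 scale, its q-value and p-value, of which the deposited p-values were not used.

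Peaks were joined in Python 3.11.15 (pandas 2.3.3, numpy 2.4.6), with scipy 1.17.1 for statistics. The 74459 joined regions were the same as those of bedtools 2.31.1, and on simulated lists all 203 planted regions were recovered with no other. Where a library had several peaks in a region the highest value was used. Pileup was also divided by the tags left after duplicate removal, per 1000000. The implied background is the pileup plus 1 over the fold enrichment, minus 1. Tender and tough libraries were compared at each level by a two-sided exact permutation test of library medians. With 2 animals a group no test here can pass 0.05, and a p-value gives only the share of arrangements with a difference at least as large. The 95% intervals cover counting error only. Alternatives were stricter q-values and fold enrichment, another overlap, the same number of peaks per library, all 4 low libraries, chromosome X, each library left out, another peak value and a replicate block. The regions and the lists were chosen with earlier results of these data known. Regions named are the 8 with the highest lowest fold enrichment over their libraries, the 4 widest, at each level the 3 with the largest percentile difference in each direction among those whose groups do not overlap, and the run with most members. The runs of 4 and the pair on chromosome 6 described as a run were named after their values were seen. Genes, CpG density, repeats and sequence were not analysed here.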

Additional observations from a re-analysis of the deposited data

Results flagged for a closer look

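The difference between tender and tough beef in the members' median percentile of fold enrichment had opposite signs in the medium fraction, at 8.57 points, and in the low fraction, at -11.8 points, with every library on its group's side. The difference between the levels was 20.3 points (two-sided exact permutation test over the 36 arrangements within levels, p = 0.0556, the smallest these allow). The fractions come from the same 4 animals, so the levels are not separate units. When libraries of the same beef and number were moved together, as if the number marked the animal, 6 arrangements were left and the exact permutation p was 0.333, the smallest these allow. This setting was added after the data were seen. In pileup per 1000000 tags it was 0.178 (exact permutation test, p = 0.389). The medium tender and the low tough libraries had the longer peak lists of their level, and the part of list length in this pattern was not tested. With the 9555 peaks of lowest p-value from each library both signs turned. The 105 regions then kept had a median width of 294 bp and lay a median of 1506 bp from a region with a high peak, against 389 and 45031 bp for the members. That setting changed the kind of region together with list length, so it cannot tell them apart.

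Chromosome X lay outside the rule. The same pattern was found there in 34 of 1839 joined regions (1.85%), against 1.02% of the regions on the autosomes.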

How the results depend on the processing

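The number of members fell from 758 to 105 with the same number of peaks from every library, to 332 with a peak asked in all 4 low libraries and to 336 when a peak in a merged high list was also refused, a setting added after the data were seen. It ranged from 347 to 1008 with 1 library left out, with 347 without LTO_2, 359 without LTO_1 and 421 without LTE_2, where all 3 remaining low libraries had to have a peak. With stricter q-values or fold enrichment, other overlaps or chromosome X it stayed within 1.5 times. With equal numbers of peaks the share with a merged high peak was 73.3%, the share with all 4 low libraries 78.1%, the median width 294 bp and the median distance to a region with a high peak 1506 bp, and the tender minus tough difference reversed to -7.98 points in the medium and 4.16 in the low fraction. The cause was not tested. The share with all 4 low libraries was 47.4% with −log10 q of at least 5 and 39.5% with a fold enrichment of at least 3. The distance was 64063.5 bp with a fold enrichment of at least 3, 60102.5 bp with peaks up to 500 bp apart joined (where the width was 479 bp), 13715.5 bp with all 4 low libraries, and 59649 bp without the crowded members, a setting added later. With 1 library left out the merged high share was 49.5 to 62.9%, the share with all 4 low libraries 41.8 to 45.2% (medium and high libraries only, since without a low library all 3 are asked for), the width 363 to 395 bp, and the distance 14357 to 57230 bp, with 14357 bp without LTO_1, 16503 bp without LTO_2 and 23849 bp without LTE_2. The tender minus tough difference stayed between 8.07 and 12.0 points in the medium fraction and between -17.4 and -10.3 in the low. With the replicate number as a block the differences were the same, 8.57 and -11.8 points, with an exact sign-flip p = 0.5, the smallest 2 pairs allow. The same number stands for another animal in the other beef, and replicate differences of members were not correlated between them (0.062 for medium and 0.00073 for low libraries, over 332 members). The block changed no call. The high libraries were the shallowest, and whether this sets the absence of peaks there was not tested.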
